A study of Mus musculus with 4 samples.

Results

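The genes of respiratory complexes I and II were examined for open chromatin at their ends. The 45 members were every protein-coding RefSeq gene of the mouse with a symbol in the Ndufa, Ndufb, Ndufc, Ndufs or Ndufv series, assembly factors (Ndufaf) left out, together with Sdha, Sdhb, Sdhc and Sdhd, out of 21887 protein-coding genes on assembled chromosomes. By symbol they comprised 41 genes of the Nduf series, called complex I genes here, and 4 complex II genes. Ndufa4 is counted among the 41, though it is now assigned to cytochrome c oxidase. The data are ATAC-seq peak lists, from an assay in which a transposase cuts accessible DNA, made from 10T1/2 cells, an established line of mouse embryonic fibroblasts. Libraries came from wild-type cells (2, called wild type 1 and 2) and from cells of the same line without Ranbp2, a nucleoporin of the cytoplasmic face of the nuclear pore (2, called knockout 1 and 2). All knockout cells descend from 1 clone, expanded from a sorted single cell after CRISPR-Cas9 editing with a guide against Ranbp2, so the genotype and any other property of that clone cannot be told apart. The labels name no treatment for either group, and 50000 cells went into a library.

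Complex I takes electrons from NADH through a flavin and a chain of iron-sulphur clusters in its matrix arm, passes them to ubiquinone and pumps protons through its membrane arm. Its nuclear genes encode the catalytic core of the matrix arm and a larger set of accessory subunits, while the core of the membrane arm is encoded by mitochondrial DNA and is not part of the gene set. Complex II, succinate dehydrogenase, belongs to both the citrate cycle and the respiratory chain, pumps no protons and is encoded wholly in the nucleus. Promoters of these genes are active in nearly all cell types and are known for sites of NRF1, of ETS factors such as GABP, of SP1 and of YY1.

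The lists held 33721 and 18511 peaks for wild type 1 and 2, and 13877 and 24292 for knockout 1 and 2. The sequencing depth behind them is unknown. The lowest −log10 q was alike in the 4 lists (3.001 to 3.021), and an absent peak means only that none passed in that list. Knockout 1 had the shortest list. Of 12 fibroblast markers, Col1a2, Vim, S100a4 and Fn1 had a peak at a gene end in all 4 libraries, Col1a1 and Postn in all but knockout 1, Pdgfrb and Twist1 in both wild-type lists alone, Col3a1 and Thy1 in wild type 1 alone, and Pdgfra and Prrx1 in none, while the 9 epithelial and endothelial markers had none in any library. The other marker peaks of immune or neural cells were those of Cd68 in knockout 2 and of Tubb3 and Snap25 in wild type 1. Whether replicates are separate cultures is not stated in the labels, so differences between them may be technical.

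Most complex I and II genes were open at an end in these fibroblasts. A gene-end peak, meaning a peak with its summit within 1 kb of either end of the gene, was present for 39 of 45 members in wild type 1 (86.7%, Wilson 95% interval 73.8 to 93.7), 37 in wild type 2 (82.2%, 68.7 to 90.7), 28 in knockout 1 (62.2%, 47.6 to 74.9) and 36 in knockout 2 (80%, 66.2 to 89.1). The intervals treat the members as independent draws within 1 library and measure no spread between libraries or genotypes. Over all protein-coding genes the shares were 42.5%, 34.6%, 27.6% and 36.3%. The members' share was therefore higher than that of all genes in each library, and in both sets knockout 1, the shortest list, was lowest. All 4 lists held a gene-end peak for 28 members (62.2%), against 26.4% of all genes. A peak in 3 lists with only knockout 1 missing was found for Ndufa3, Ndufb8, Ndufb9, Ndufc2, Ndufs3 and Sdhd. Ndufc1 had a peak in wild type 1 and knockout 2, Ndufb1 in wild type 2 and knockout 2, and Ndufa1 and Ndufa9 in wild type 1 alone. With every list reduced to its 13877 strongest peaks, 35 and 34 members were open at an end in the wild-type and 28 and 29 in the knockout libraries, so the knockout counts were then below both wild-type counts. The corresponding shares of all genes were 31.5% and 30.6% in wild type and 27.6% and 29.8% in knockout libraries.

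**Figure D1:**
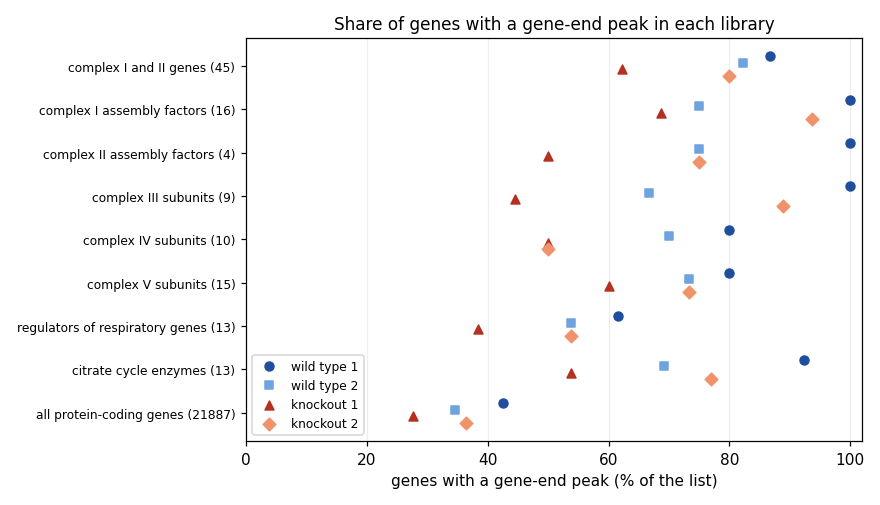
Percent of genes with a gene-end peak in each of the 4 libraries (points, coloured by library) for the complex I and II genes, for lists of related genes and for all protein-coding genes, with the number of genes in brackets. The complex I and II genes run from 62.2% in knockout 1 to 86.7% in wild type 1, and all protein-coding genes from 27.6% to 42.5%.

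Among the complex II genes, Sdhb was the most accessible and Sdha lacked a knockout peak. Sdhb, the iron-sulphur subunit (chromosome 4, 140961271-140979198, mm10), had a fold enrichment, the authors' value for the signal at the summit relative to nearby background, of 24.9 and 17.9 in wild type 1 and 2 and of 13.2 and 19.7 in knockout 1 and 2. Its peak stood at percentiles 97.4, 89.9, 89.98 and 96.7 of those lists when peaks were ranked by −log10 q, with 100 for the strongest, and the genotypes overlapped. Sdhc, a membrane anchor (chromosome 1, 171129157-171150640), had folds of 14.0, 12.3, 9.15 and 8.29 and percentiles of 78.8, 67.2, 66.5 and 61.9 in the same order. Both knockout ranks of Sdhc were below both wild-type ranks, narrowly so for wild type 2 and knockout 1. Sdhd, the other anchor (chromosome 9, 50596340-50603849), had folds of 13.3 and 14.7 in wild type and 8.31 in knockout 2, at percentiles 75.0, 75.8 and 54.6, and no peak in knockout 1. Sdha, the flavoprotein that oxidises succinate (chromosome 13, 74322255-74350240), had folds of 11.3 and 7.93 in wild type, at percentiles 62.4 and 27.2, and no gene-end peak in either knockout list. The peaks of Sdha and Sdhd also lay within 1 kb of an end of Ccdc127 and Timm8b, respectively, and cannot be given to 1 gene of the pair.

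**Figure D2:**
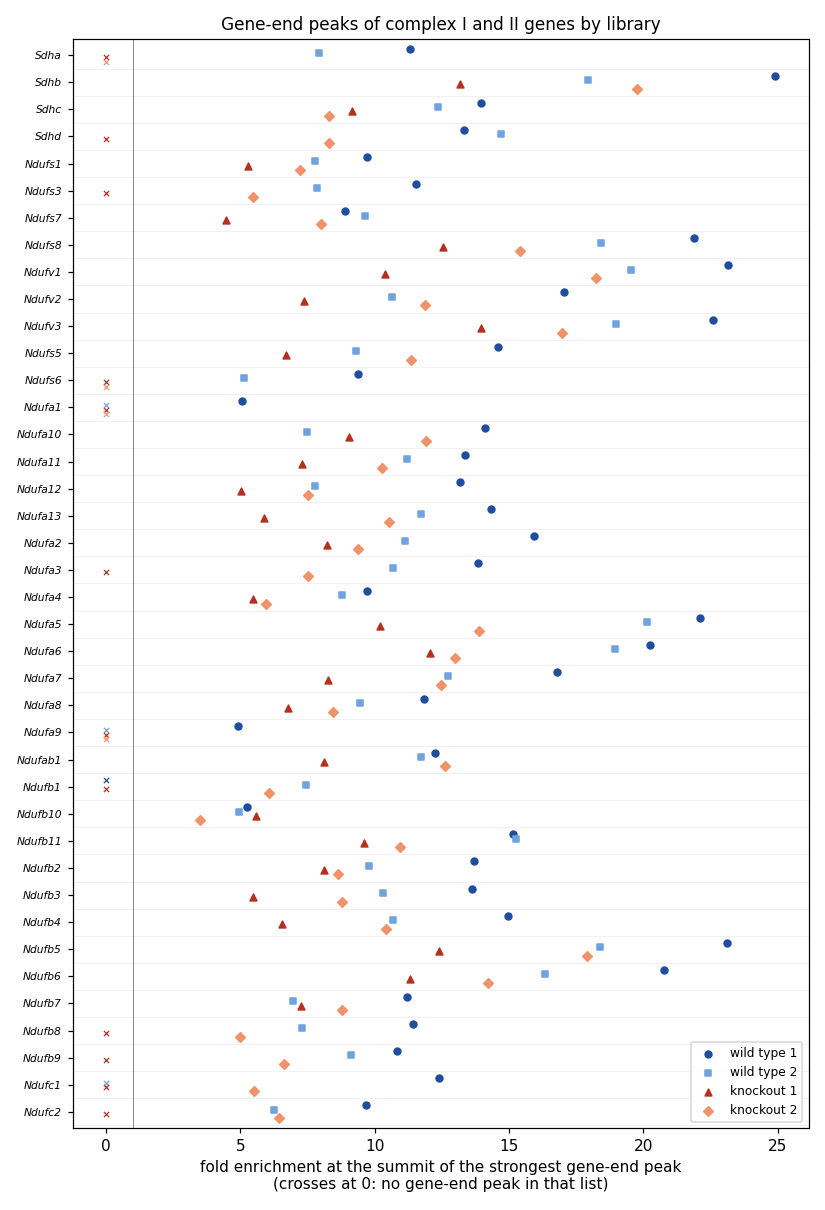
Fold enrichment at the summit of the strongest gene-end peak (horizontal axis) for each of the 40 genes with a gene-end peak in at least 1 list, ordered by role, in each library (coloured symbols, 1 value per library), with crosses at 0 where the list had no gene-end peak. Sdha and Ndufs6 have values in both wild-type libraries and crosses in both knockout libraries.

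Sdha and Ndufs6 were the members with a gene-end peak in both wild-type lists but in no knockout list (2 of 45, 4.44%, against 1.69% of all protein-coding genes). Of the genes with a peak in both wild-type lists, this was 2 of 36 members, against 370 of 7517 genes (4.92%), a similar share. No member had the opposite pattern (0 of 45, against 0.0503% of all genes). Ndufs6, an accessory subunit of the NADH-oxidising part of complex I (chromosome 13, 73319876-73328482), had folds of 9.39 and 5.15 in wild type 1 and 2, at percentiles 61.3 and 2.17. The nearest knockout summits lay 119 kb from an end of Ndufs6 and 4.85 and 4.88 kb from an end of Sdha. The wild-type 2 peak of Ndufs6 was among the weakest of its list (−log10 q 4.78, where the lowest value in the list is 3.02), and that of Sdha was stronger (−log10 q 10.0). When only peaks with −log10 q of at least 5 counted, Sdha alone had this pattern. With 13877 peaks per list the pattern held for Sdha, Ndufs3 and Ndufb8 (1.36% of all genes) and not for Ndufs6. The Sdha peaks were then near the floor, at percentiles 8.70 and 2.94 of the shortened wild-type lists. Ndufs3 and Ndufb8 did have peaks in the full knockout 2 list, at percentiles 25.5 and 17.5, which the shortening removed. The fibroblast markers Pdgfrb and Twist1 also had peaks in both full wild-type lists alone. The part of a shift in fibroblast genes in the Sdha and Ndufs6 result was not tested.

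Both genes lie on chromosome 13, where their pattern was more frequent among all genes than over the genome. On chromosome 13, 25 of the 305 protein-coding genes open at an end in both wild-type lists were not in either knockout list (8.20%), against 370 of 7517 over all chromosomes (4.92%). The 25 include Sdha and Ndufs6 themselves, and a peak shared by neighbouring genes can count for each of them. The peaks of Sdha and Ndufs6 also lay at ends of Ccdc127 and Mrpl36, so this share is not independent of the 2 members. Chromosome 9, with Sdhd, had a like share (8.27%). Over the chromosome 13 genes with a peak in all 4 libraries, the knockout rank percentile was 13.8 points below the wild-type percentile in the median (-13.8, against -11.2 on the X chromosome, -11.1 on chromosome 9 and -5.89 over all chromosomes). With lists of equal length the chromosome 13 values were 7.26% and -9.42 points, against 4.71% and -1.47 points over all chromosomes. The part of this chromosome-wide difference in the Sdha and Ndufs6 result was not tested. Ndufs4, the third member on chromosome 13 and an accessory subunit needed for a stable complex I, had no gene-end peak in any library. All 5 members on chromosome 17 (Ndufa7, Ndufa11, Ndufb10, Ndufv2 and Ndufv3) had a peak in all 4 libraries, as did 358 of the 416 genes there that had one in both wild-type lists.

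**Figure D3:**
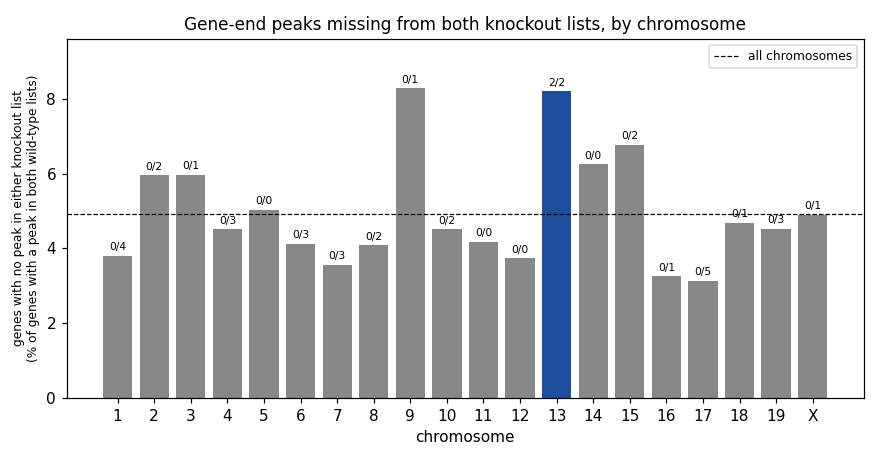
Bars give, per chromosome, the share (in percent) of protein-coding genes open at an end in both wild-type lists that lacked a peak in either knockout list, with chromosome 13 in blue and the value over all chromosomes (4.92%) as a dashed line. The bars include the complex I and II genes. The fractions above the bars give the complex I and II genes with that pattern over those with a peak in both wild-type lists, which is 2/2 on chromosome 13 and 0 elsewhere.

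The promoters of Sdha, Sdhb, Sdhd and Ndufs6 are shown because they span the range of patterns, from a peak in all 4 libraries (Sdhb) through 1 missing (Sdhd) to no knockout peak (Sdha and Ndufs6). The sequences are from RefSeq (GRCm38.p6, the coordinates of mm10), on the strand of the gene, 250 bases before the start and 30 from the start on. They span chr13:74350211-74350490 (minus strand) for Sdha, chr4:140961021-140961300 (plus) for Sdhb, chr9:50603820-50604099 (minus) for Sdhd and chr13:73328453-73328732 (minus) for Ndufs6. Capitals mark exact matches on either strand to the motif letters searched, which were GCATGCGC for NRF1, CCGGAAG for ETS factors, GGGCGG for SP1, AAGATGGCG and ATGGCGGC for YY1, CCAAT for NFY and TGACGTCA for CREB.
Sdha: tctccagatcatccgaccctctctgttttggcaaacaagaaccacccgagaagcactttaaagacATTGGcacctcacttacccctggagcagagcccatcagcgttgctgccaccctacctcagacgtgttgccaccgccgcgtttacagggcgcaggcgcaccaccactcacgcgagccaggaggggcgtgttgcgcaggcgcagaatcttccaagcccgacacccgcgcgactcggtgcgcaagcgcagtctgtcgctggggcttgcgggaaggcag
Ndufs6: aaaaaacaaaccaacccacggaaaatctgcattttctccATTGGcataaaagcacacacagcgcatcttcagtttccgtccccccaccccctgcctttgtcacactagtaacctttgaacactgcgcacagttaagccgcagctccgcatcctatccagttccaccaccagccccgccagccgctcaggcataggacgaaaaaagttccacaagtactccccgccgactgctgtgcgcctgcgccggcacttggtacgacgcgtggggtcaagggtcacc
Sdhb: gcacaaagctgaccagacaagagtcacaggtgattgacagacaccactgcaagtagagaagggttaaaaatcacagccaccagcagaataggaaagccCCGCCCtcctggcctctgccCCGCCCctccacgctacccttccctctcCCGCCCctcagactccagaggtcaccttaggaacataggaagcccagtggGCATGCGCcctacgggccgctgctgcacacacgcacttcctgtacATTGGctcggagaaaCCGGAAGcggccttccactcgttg
Sdhd: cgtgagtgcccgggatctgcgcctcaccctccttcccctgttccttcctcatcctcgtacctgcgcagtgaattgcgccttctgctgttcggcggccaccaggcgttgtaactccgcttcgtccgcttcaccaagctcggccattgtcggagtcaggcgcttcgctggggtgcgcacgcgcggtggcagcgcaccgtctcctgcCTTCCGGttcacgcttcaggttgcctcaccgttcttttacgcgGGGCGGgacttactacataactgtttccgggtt

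The Sdhb promoter held matches to 4 of these factors, with NRF1 at -54, NFY at -9 and ETS at 6, counted in bases from the start (0 is the first base of the gene, negative is before it) to the first letter of the match. The summits of the 4 libraries lay among these, from -16 to -10. The stretch shown for Sdha and that shown for Ndufs6 each held 1 match, to the NFY letters, at -185 in Sdha and at -211 in Ndufs6. Ndufs6 also had YY1 matches at 33 and 36, just past the end of the stretch shown. In Sdhd the ETS match began at -46 and the SP1 match at -3. A match describes letters only and shows no binding.

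Core subunits of complex I differed widely in accessibility. Ndufs8, an iron-sulphur subunit next to the quinone site (chromosome 19, 3908863-3912774), had the highest mean rank of all members, with folds of 21.9, 18.4, 12.6 and 15.4 in wild type 1, wild type 2, knockout 1 and knockout 2 and percentiles of 99.4, 97.8, 94.7 and 97.0. Both knockout ranks of Ndufs8 were below both wild-type ranks. Ndufv1, which binds NADH and the flavin (chromosome 19, 4007499-4012755), had folds of 23.1, 19.5, 10.4 and 18.2 and percentiles of 99.0, 97.0, 84.0 and 97.9, and the genotypes overlapped. Ndufv2, its iron-sulphur partner (chromosome 17, 66078795-66101559), had folds of 17.1, 10.6, 7.37 and 11.9 at percentiles 86.7, 59.9, 52.8 and 83.9. For Ndufv2 the replicates of each genotype lay further apart than the genotype means. Ndufs7, which carries the last cluster before ubiquinone (chromosome 10, 80249105-80256794), had folds of 8.91, 9.62, 4.46 and 8.01 at percentiles 78.7, 73.5, 6.92 and 76.1. By rank, only knockout 1 was low for Ndufs7 and knockout 2 lay between the wild-type libraries. Both knockout folds of Ndufs7 were below both wild-type folds, as were the median folds over all genes. Ndufs1, the large iron-sulphur subunit (chromosome 1, 63143592-63176822), had folds of 9.70, 7.76, 5.28 and 7.22 at percentiles 67.1, 39.2, 9.45 and 54.1, again lowest in knockout 1. Ndufs3, a subunit of the quinone module (chromosome 2, 90894627-90904721), had folds of 11.5 and 7.85 in wild type and 5.46 in knockout 2, with no peak in knockout 1.

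Ndufa4l2, a paralogue of Ndufa4 known as a hypoxia-induced gene (chromosome 10, 127509274-127517154), had no gene-end peak in any library but 1 peak inside its span in each, 3.72 to 3.78 kb from its start coordinate, with folds of 9.87, 6.45, 4.40 and 6.09. Ndufs4, Ndufb4b and Ndufb4c had neither a gene-end peak nor a peak inside their spans. Ndufb4b and Ndufb4c are annotated as spans of 471 and 485 bp, and are copies of Ndufb4, so their lack of a peak is uncertain.

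The accessory subunits ran from open in all 4 libraries to open in none. Of the 15 Ndufa genes 11 had a peak in all 4 libraries, of the 13 Ndufb genes 8, of the 2 Ndufc genes none, and of the 3 accessory Ndufs genes only Ndufs5. Ndufv3, a small subunit of the NADH-oxidising tip (chromosome 17, 31520115-31531326), had folds of 22.6, 19.0, 13.9 and 17.0 in wild type 1, wild type 2, knockout 1 and knockout 2, at percentiles 95.4, 90.8, 94.1 and 96.0. Ndufa6, which docks the acyl carrier protein (chromosome 15, 82350139-82354291), had folds of 20.2, 18.9, 12.05 and 12.98 at percentiles 97.5, 96.1, 91.0 and 91.9. Its ranks separated the genotypes, with the replicates of each close together. Ndufab1, the acyl carrier protein itself, had overlapping folds of 12.2, 11.7, 8.11 and 12.6. At the low end, Ndufb10, a membrane-arm subunit (chromosome 17, 24722060-24724423), had the lowest mean rank of the members present in all lists, with folds of 5.26, 4.95, 5.59 and 3.51 at percentiles 40.4, 7.80, 37.5 and 6.80. Replicates of Ndufb10 differed by more than the genotypes did. The wild type 1 peaks of Ndufa1, an X-linked membrane-arm subunit, and of Ndufa9, a subunit beside the quinone site, were weak (folds 5.07 and 4.92, percentiles 7.30 and 5.04).

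On the scale of the whole lists, gene-end ranks of the members were mostly lower in knockout libraries, as were those of all genes. Over the 28 members with a peak in all 4 lists, the knockout mean percentile minus the wild-type mean had a median of -6.19 points (quartiles -14.2 and -2.71), against -5.89 (-14.0 and -1.26) over 5789 genes. The median moved with single libraries, to -0.0984 without wild type 1, -0.54 without knockout 1, -15.3 without wild type 2 and -15.4 without knockout 2, where the medians over all genes were -1.73, -0.356, -11.6 and -11.9. The difference was below 0 for 25 of 28 members (89.3%, against 83.4% of all genes) and above 0 for Ndufa10, Ndufb7 and Ndufv3. The gap between replicates was larger in the median, with wild type 1 above wild type 2 by 14.0 points and knockout 1 differing from knockout 2 by -14.1 points, and the knockout 2 minus wild type 2 median was 7.28 points. Both knockout libraries ranked below both wild-type libraries for 6 of the 28 members (21.4%, against 27.4% of all genes) and above both for 0 (against 1.49%). These 6 were Ndufa4, Ndufa5, Ndufa6, Ndufb11, Ndufs8 and Sdhc. For a single gene such a separation of 2 from 2 libraries gives an exact two-sided permutation p of 0.33, the smallest this design allows, so no single member could pass a threshold of 0.05.

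**Figure D4:**
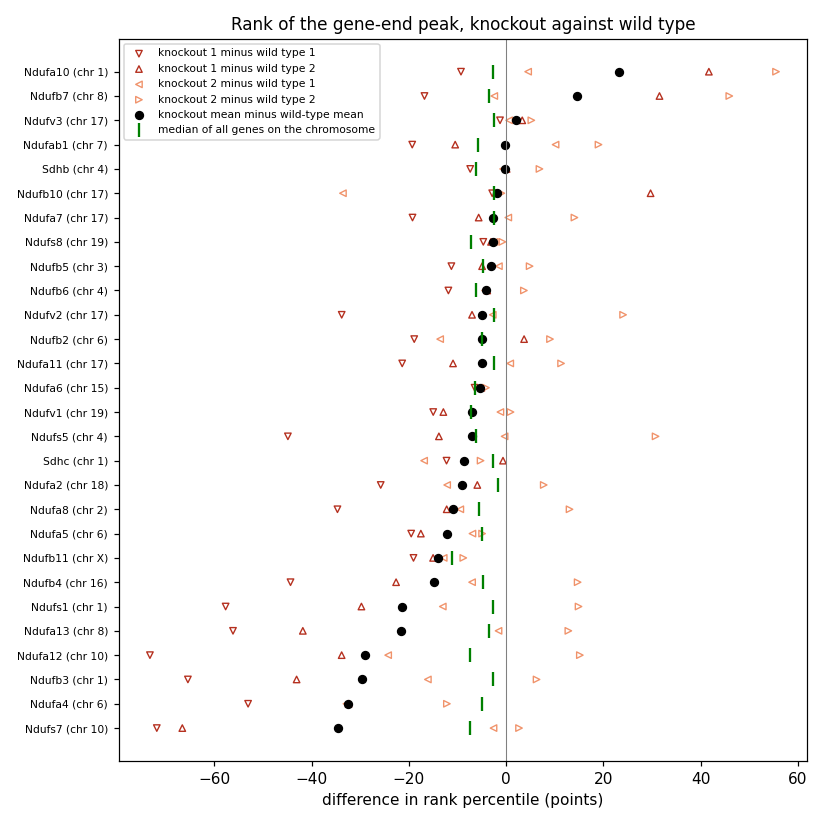
Difference in rank percentile (horizontal axis, points) between knockout and wild-type libraries for the 28 genes with a gene-end peak in all 4 lists: open triangles give the 4 library pairs, black dots the difference of the genotype means, green ticks the median over all genes on the same chromosome. The 4 pairs of a gene often straddle 0, and all 4 lie below 0 for 6 genes.

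The split into lower and higher members turned on the ranking scale. With 13877 peaks in every list, 26 members had a peak in all 4, of which 4 ranked lower in both knockout libraries (Ndufa5, Ndufa6, Ndufb3 and Ndufs8) and 5 higher (Ndufa8, Ndufa10, Ndufab1, Ndufb7 and Ndufv3), and the median difference was -2.24 points (-1.47 over all genes), with 15 members below 0 and 11 above (59.4% of all genes were below). Of all genes on that scale, 26.4% ranked lower and 15.0% higher in both knockout libraries. Ranked among gene-end peaks only, 6 members were lower and 2, Ndufa10 and Ndufv3, higher (32.4% and 7.24% of all genes). After the median difference of the chromosome was subtracted, Ndufa4 and Ndufa5 remained lower, and Ndufs8 and Ndufv3 were higher (7.41% and 16.9% of all genes), with a median of -1.64 points and 16 members below 0. Ndufa5 was thus lower with equal list lengths and less the chromosome median alike. Ndufs8 changed sides with the chromosome median, which was -7.26 points on chromosome 19. Subtracting it took both knockout percentiles of Ndufs8 (94.7 and 97.0) past the top of the scale. The higher call for Ndufs8 was therefore fixed by the arithmetic and says nothing about the genotypes.

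Ndufa5, an accessory subunit of the quinone module (chromosome 6, 24518662-24527690), had folds of 22.1, 20.1, 10.2 and 13.9 and percentiles of 94.7, 92.7, 75.2 and 87.8. Ndufa4, now assigned to cytochrome c oxidase (chromosome 6, 11900372-11907450), had the largest difference among the 6, with folds of 9.71, 8.77, 5.49 and 5.95 and percentiles of 59.2, 38.6, 6.15 and 26.4, a mean difference of -32.6 points. Its wild type 1 peak (11907413-11907546) did not overlap those of the other lists, which began at 11907708 or later. The Ndufa4 values thus compare unlike regions, and an end of Phf14 also lay within 1 kb of a summit. With equal list lengths Ndufa4 had no knockout 2 peak, and its knockout 1 percentile (6.15) lay between those of wild type 1 (0.883) and wild type 2 (18.03), so the separation was lost. Ndufb11, an X-linked membrane-arm subunit (X chromosome, 20615326-20617619), had folds of 15.2, 15.3, 9.61 and 10.95 and percentiles of 86.2, 82.2, 67.2 and 73.4, a difference of -13.9 points where the median gene of the X chromosome had -11.2. The highest positive difference was that of Ndufa10, a membrane-arm subunit (chromosome 1, 92439486-92473825), at 23.1 points, but its wild-type percentiles were 76.5 and 25.6, against 67.2 and 81.0 in knockout. Ndufb7, a subunit on the intermembrane-space side, showed the same unevenness, with percentiles of 73.7 and 25.4 in wild type and 56.9 and 71.3 in knockout. For Ndufa4, Ndufa6, Ndufb11 and Ndufs8 the genotype difference exceeded the gap between replicates in both genotypes, as it did for 13.2% of all genes, and for the other 24 members it did not. For Ndufa4 this comparison mixes unlike peaks.

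Summits lay just before the transcription start. For 38 members RefSeq start positions were at hand, and the summit of the strongest gene-end peak was at a median of -42, -49, -60 and -51.5 bases from the nearest start in wild type 1, wild type 2, knockout 1 and knockout 2. Within 100 bases of a start were 28 of 35, 24 of 33, 15 of 25 and 24 of 32 summits. Ndufb6, a membrane-arm subunit, was the far exception, since its strongest peak lay 9554 to 9561 bases beyond its start, where ends of Topors and Smim27 are. Its own start also had a peak in each library, with folds of 13.1, 9.61, 5.70 and 6.87 and percentiles of 77.7, 53.2, 21.0 and 52.2. At that start both knockout ranks were below both wild-type ranks, narrowly so for wild type 2 and knockout 2. Of the 40 members with a gene-end peak, 22 had the summit within 1 kb of an end of another protein-coding gene, such as Mrpl36 at Ndufs6, Mrpl47 at Ndufb5, Rps28 at Ndufa7 and Eef1b2 at Ndufs1.

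**Figure D5:**
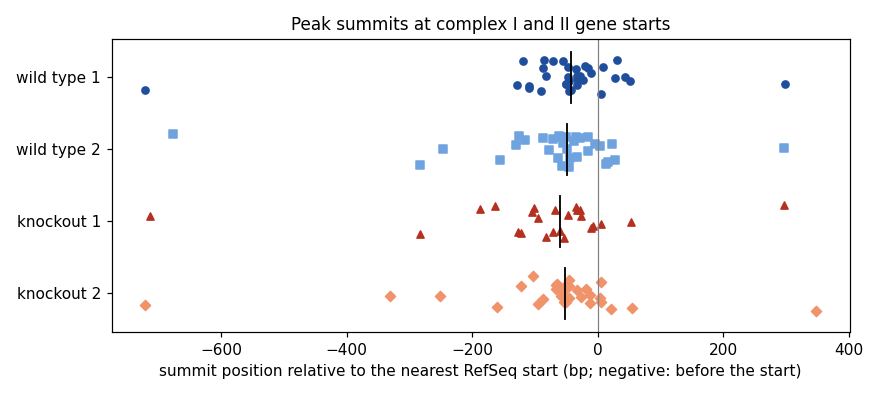
Position of the summit of each gene's strongest gene-end peak relative to the nearest RefSeq start (horizontal axis, bp, negative before the start), 1 point per gene and library, with black bars at the medians (-42, -49, -60 and -51.5 bp from top to bottom). Heights within a row are only spread for legibility, and Ndufb6, at 9554 to 9561 bp, is outside the axis.

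Among the members whose promoter held at least 2 of the searched motifs, Sdhb, Ndufs8, Ndufa6 and Ndufv3 had the highest mean ranks. Those of the complex I genes are printed as before, spanning chr19:3912745-3913024 (minus strand) for Ndufs8, chr15:82354262-82354541 (minus) for Ndufa6 and chr17:31519865-31520144 (plus) for Ndufv3.
Ndufs8: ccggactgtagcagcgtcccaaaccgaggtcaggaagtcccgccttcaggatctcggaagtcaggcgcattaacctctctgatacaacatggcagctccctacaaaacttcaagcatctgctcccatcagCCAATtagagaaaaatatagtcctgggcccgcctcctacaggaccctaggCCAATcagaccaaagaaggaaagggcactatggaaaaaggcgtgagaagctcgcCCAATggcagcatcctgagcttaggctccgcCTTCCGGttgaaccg
Ndufa6: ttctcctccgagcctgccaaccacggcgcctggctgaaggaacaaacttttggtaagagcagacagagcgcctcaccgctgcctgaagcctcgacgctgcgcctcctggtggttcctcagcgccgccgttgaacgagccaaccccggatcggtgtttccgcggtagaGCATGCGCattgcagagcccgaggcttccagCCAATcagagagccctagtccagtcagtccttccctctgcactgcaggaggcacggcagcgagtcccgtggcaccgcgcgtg
Ndufv3: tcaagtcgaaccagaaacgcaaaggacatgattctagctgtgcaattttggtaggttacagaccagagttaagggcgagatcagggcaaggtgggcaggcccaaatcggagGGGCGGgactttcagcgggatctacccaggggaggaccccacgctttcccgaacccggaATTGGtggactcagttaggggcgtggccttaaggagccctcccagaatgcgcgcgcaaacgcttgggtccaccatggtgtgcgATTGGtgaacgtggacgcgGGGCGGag

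Ndufs8 held 3 NFY matches before the start and 1 ETS match after it, Ndufa6 an NRF1 match at -83 and an NFY match at -52, and Ndufv3 a pair each of SP1 and NFY matches. Shares were counted in windows from 250 bases before to 50 from the start on, for 38 members and for 17492 protein-coding genes. The NRF1 letters were in 4 members (10.5%, against 3.94% of all genes), namely Sdhb, Ndufa6, Ndufa8 and Ndufa11, each with a peak in all 4 libraries. ETS letters were in 6 members (15.8%, against 12.9%), SP1 letters in 17 (44.7%, against 49.2%), NFY letters in 12 (31.6%, against 42.3%) and CREB letters in 3 (7.89%, against 2.54%). Of the 25 members with a promoter and a peak in all 4 libraries, 4 held the NRF1, 4 the ETS, 12 the SP1 and 9 the NFY letters. Among all genes with a peak in all 4 libraries the NRF1 letters were in 7.35%, ETS in 24.8%, SP1 in 72.9% and NFY in 50.0%. None of the searched letters were found for Ndufa4, Ndufb1, Ndufb4b, Ndufb10, Ndufs5 and Ndufv1. Of these, Ndufa4, Ndufb10, Ndufs5 and Ndufv1 had a peak in all 4 libraries, while Ndufb1 and Ndufb4b did not. The mean percentile of Ndufv1 over the 4 libraries (94.5) was above that of Sdhb (93.5). The median G and C content of the members' windows was 59.5%, against 57.3% over all genes and 62.3% over genes with a peak in all 4 libraries.

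The longer YY1 letters stood at a like position in 5 members (13.2%, against 2.14% of all genes). In each they lay on the strand of the gene, 22 to 35 bases after the start, and they contain an ATG. Of the 390 promoter windows of all genes with these letters, 197 (50.5%) held them on the strand of the gene at or after the start. These sites are shown as 30 bases with the motif in capitals, at chr13:114388045-114388074 (minus strand) for Ndufs4, chr13:73328433-73328462 (minus) for Ndufs6, chr6:126849095-126849124 (minus) for Ndufa9, chr3:51408913-51408942 (minus) for Ndufc1 and chr10:80249464-80249493 (plus) for Ndufs7.
Ndufs4: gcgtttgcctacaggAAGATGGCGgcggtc
Ndufs6: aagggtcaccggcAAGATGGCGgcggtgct
Ndufa9: ttgtgggagAAGATGGCGgccgccgtccgc
Ndufc1: ctgcggaacAAGATGGCGccgtccgtagtg
Ndufs7: gccgaggccAAGATGGCGgcgctggcgggt

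Of these 5 members, Ndufs7 alone had a peak in all 4 libraries, while Ndufc1 and Ndufs6 had one in 2 lists, Ndufa9 in 1 and Ndufs4 in none. Over all members with a RefSeq promoter 25 of 38 had a peak in all 4 libraries. Over all genes the direction was the opposite, as 56.7% of the 374 genes with these letters had a peak in all 4 libraries, against 27.6% of all genes with a promoter. The shorter YY1 letters, which overlap the longer in 4 of the 5 members, were in 6 members (15.8%, against 3.50% of all genes). The letters ATGGCGGC were also in Ndufa7 and Ndufb5, both open in all 4 libraries.

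No complex I or II gene was at a region that the authors called different between the genotypes. The authors' deposited tables list 189 regions as enriched in knockout and 190 as enriched in wild-type cells. Within 1 kb of an end of a member lay 0 of the knockout-enriched regions (against 0.105% of all protein-coding genes with such a region) and 0 of the wild-type-enriched (against 0.512%), and no member was the gene nearest to a region. The closest was Ndufs7, 4.30 kb from a wild-type-enriched region at Dazap1 (chromosome 10, 80261092-80261491). Next came Ndufb4b, 37.7 kb from a knockout-enriched region near Dock8, Ndufv1, 84.3 kb from a wild-type-enriched region at Cdk2ap2, and Ndufa11, 86.0 kb from a knockout-enriched region in Rfx2, all in the authors' deposited tables.

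In lists of related genes the share open in all 4 libraries ran from 38.5% to 62.5%, at or below the 62.2% of the complex I and II genes in all but 1 list. A gene-end peak in all 4 libraries was found for 10 of 16 complex I assembly factors, 2 of 4 complex II assembly factors, 4 of 9 complex III, 5 of 10 complex IV and 9 of 15 complex V subunits, and 7 of 13 citrate cycle enzymes. A peak in both wild-type lists but in no knockout list was seen in these lists only for Cox6b1 and Cox6c, subunits of cytochrome c oxidase. Over all protein-coding genes 1.69% had this pattern, or 4.92% of those with a peak in both wild-type lists. The wild-type folds were 9.53 and 6.44 for Cox6b1 and 7.90 and 5.77 for Cox6c. The wild type 2 percentiles of Cox6b1 and Cox6c, 11.6 and 5.22, were low, as was that of Ndufs6. Of 13 regulators of respiratory genes, 5 were open at an end in all 4 libraries, and Esrrg, Gabpb1, Hif1a, Ppargc1a and Ppargc1b had no gene-end peak. No gene of these 7 lists had a deposited differential region within 1 kb of an end. The median rank difference ran from -13.8 points in complex IV (5 genes) to -0.972 in complex III (4 genes), around the -6.19 of the members.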

How the data were processed

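ATAC-seq was measured in 2 wild-type and 2 Ranbp2-knockout libraries of 10T1/2 cells. The submitters' processing notes name MACS2, DiffBind 2.2.12, DESeq2, Bowtie2, cutadapt and deepTools without their roles, and genome build mm10. The authors deposited 1 peak list per library, and peak names show separate calling. The deposited columns are a score (10 times −log10 q), a fold enrichment ratio at the summit, and −log10 p and −log10 q values. The authors' differential regions were deposited as positions only, without a threshold in the sources read here. Read counts were not at hand, depth is unknown, and intervals cover counting error only.

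Computed here, with Python 3.11.15, pandas 2.3.3 and SciPy 1.17.1: gene ends came from RefSeq spans (GRCm38.p6), and a member's strongest peak (by −log10 q) with a summit within 1000 bp of either end was kept. Percentiles were taken within each list. Counts and medians are set beside the same over all 21887 protein-coding genes, and a single gene's exact permutation test over 4 libraries cannot give a p below 0.33. All symbols of the 7 lists of related genes and of the marker lists were matched. Scripts were tested on simulated peaks. Alternatives were the window, list length, threshold, ranking, chromosome median, replicate numbers and leaving out libraries. Named were complex II and core genes, members present in 1 genotype only or in no list, members near differential regions, the 5 largest separated rank differences in each direction, and the 3 highest and lowest ranks. Ndufa10, Ndufab1, Ndufb7, Ndufv3, Ndufb6 and the YY1 sites were singled out after their values were seen, as were the added alternatives. The members and lists were chosen with earlier results of these data known. No genome sequence was used here. Values of 1 member are not reported here, though the counts include it.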

Additional observations from a re-analysis of the deposited data

How the results depend on the processing

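Sdha had no knockout peak when any overlap with the 1 kb window counted, or when summits inside the gene span counted. The other alternatives run on presence could only remove peaks, so they could not have given Sdha a knockout peak. Ndufs6 lost the wild-type-only pattern with lists of equal length (3 such members) and with −log10 q of at least 5 (1 such member). The number of members ranked higher in both knockout libraries was 5 with lists of equal length, 2 among gene-end peaks only and 2 less the chromosome median, against 0, and the number ranked lower was 2 less the chromosome median, against 6. The number ranked lower was 8 with the peak nearest to a gene end (26.5% of genes), where Ndufb6 and Ndufa13 were added. With a 500 bp window it was 7 (27.7% of genes), where Ndufb6 was added. Less the chromosome median the difference was 4.53 points for Ndufs8 and 1.02 for Ndufa6, both reversed. For Ndufs8 the subtraction passed the top of the scale, which fixed the sign. The cause of the other changes was not tested. With 1 library left out at a time, members lower in knockout ran from 6 to 23 (28.3% of all genes without wild type 1, 80.04% without wild type 2), with 22 (75.2% of genes) without knockout 2. Members higher ran from 0 (without wild type 2 or knockout 2, 1.83% and 2.11% of genes) to 5 (without wild type 1, 22.9%). Wild-type-only members ran from 2 (without wild type 1 or knockout 1, 1.82% and 1.83% of genes) to 8 (without knockout 2, 7.75%). Without wild type 2 there were 4 (6.58%). Fewer libraries make separation easier by construction. Without knockout 1, 12 of 34 members were lower and 5 higher (30.1% and 17.0% of genes). The median ran from -15.4 to -0.0984 points. A window of 5 kb put 1 member, Ndufs7, at a wild-type-enriched region. In the 100 bases before the start alone, 3 members had the ETS, 9 the SP1, 7 the NFY, 0 the longer and 1 the shorter YY1 letters, as the window is shorter.

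The replicate numbers in the labels give no shared culture or day. Separate library numbers were 1 and 3 for wild type 1 and 2, and 2 and 3 for knockout 1 and 2. Whether a shared library number marks a shared day is not stated. With a replicate block the median difference is -6.19 points by construction, and 7 members were lower and 0 higher in both pairs (29.6% and 2.00% of genes). Over all genes present in 4 lists, replicate deviations of same-numbered libraries correlated at -0.248, so the crossed pairing was added after seeing the data, with 19 members lower and 2 higher (63.0% and 6.46% of genes). Depth is unknown, so what it limits could not be given.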
